A study of Arabidopsis thaliana with 12 samples.

Results

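Plants keep the thiol groups of chloroplast enzymes reduced in light and oxidised in darkness, and a small set of plastid redox proteins moves the electrons. Ferredoxin-thioredoxin reductase passes electrons from photosystem I, by way of ferredoxin, to thioredoxins, which switch on enzymes of carbon fixation. NTRC is a separate reductase that draws on NADPH and carries its own thioredoxin domain. It is best known as the electron donor of certain plastid peroxiredoxins, which remove peroxides. The values below cover 5 genes of this kind: AT2G04700, for the catalytic part of ferredoxin-thioredoxin reductase; NTRC (AT2G41680); AT3G52960, the plastid peroxiredoxin IIE; AT1G54500, a rubredoxin-like protein; and AT1G04420, an oxidoreductase of the aldo-keto reductase family. They were taken by locus from the platform annotation, each on 1 feature assigned to that gene alone, out of 692 features of a single gene and 3439 features in all. None of the 5 was also listed on a feature shared by several genes. The genes were selected on their psbs minus WT differences in these same samples, or with those differences known, so the differences are given as a description. No p-value is given for them, and calls of the fit over all features are only counted beside the share of all features called.

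The samples were total RNA of Arabidopsis thaliana, ecotype Columbia 0 throughout, from 6 wild-type (WT) samples and 6 samples of the psbs mutant. According to the labels the mutant is without the protein PSII-S, also called PsbS, on which leaves depend for turning surplus light energy quickly into heat. The labels place it in photosystem I, whereas PsbS belongs to photosystem II. Tissue, plant age, light regime and the allele are not given, and nothing says that samples of a group came from separate plants, so p-values here reflect a spread between samples that could be technical. None of the 16 marker genes listed for leaf, seed, root and flower could be read from a feature of their own, so the tissue could not be checked. In bulk RNA, a change in the share of cells that express a gene and a change in RNA per cell cannot be told apart.

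The deposited values are linear intensities in arbitrary units between 0 and 100, and their overall level differed between the groups. The median of a sample lay between 0.304 and 0.379 in WT and between 0.0233 and 0.0361 in psbs, and the share of features at exactly 0 was 13.0% to 13.7% in WT and 27.0% to 34.9% in psbs. A gene near the middle of both groups would therefore appear lower in psbs as deposited, which need not hold for the brightest features. Each gene is described below by its deposited intensity and by its position, the percentage of all features that were dimmer in the same sample. Any value above 0 ranks above all features at 0, which were a larger share in psbs. Low positions are therefore not directly comparable between the groups. No level is set against that of another gene, because each feature has its own response. Any hybridization batch that coincided with the groups cannot be told apart from the genotype.

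AT2G04700, which reduces thioredoxins with electrons from ferredoxin, was brighter in every psbs sample. Its intensity in WT replicates 1 to 6 was 0.213, 0.196, 0.176, 0.157, 0.176 and 0.165. In psbs replicates 1 to 6 it was 0.765, 0.745, 0.758, 0.668, 0.598 and 0.728. The groups did not overlap, and the dimmest psbs sample was 2.80 times the brightest WT sample. The mean rose from 0.180 ± 0.0209 to 0.710 ± 0.0652 (SD, n = 6 each), a ratio of 3.94. Its position moved from the dim part of a WT sample, with 26.2% to 31.8% of features dimmer, to the bright end of a psbs sample, with 90.9% to 92.4% dimmer.

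NTRC, the other thioredoxin reductase, was lower in psbs in deposited intensity, as most features were. The WT samples, in order of replicate number, were at 0.360, 0.399, 0.334, 0.345, 0.304 and 0.293. The psbs samples were at 0.0195, 0, 0.0835, 0.0769, 0.142 and 0.158, and replicates 1 and 2 were the lowest. All lay below all WT samples, as for 67.3% of all tested features. Its position did not follow. In WT 47.9% to 52.1% of features were dimmer, near the middle of each sample. In psbs replicates 3 to 6 the figure was 67.1% to 78.7%, above WT, while it was 46.6% in replicate 1, and replicate 2 was listed at 0. Intensity and position thus gave opposite orders of the groups in 4 of the 6 psbs samples.

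AT3G52960, the peroxiredoxin IIE that reduces hydrogen peroxide and organic peroxides in the stroma, was at or near 0 in every psbs sample. Its WT intensities were 0.266, 0.276, 0.285, 0.265, 0.270 and 0.260. It was listed at 0 in psbs replicates 1 to 5 and at 0.0187 in replicate 6. The groups did not overlap in deposited intensity, with psbs below, as for 67.3% of all tested features. No fold change is given against samples listed at 0, since the meaning of a 0 is not given in the sources used here. In position, psbs replicate 6 stood at 39.6%, inside the WT range of 37.6% to 45.4%, although 27.7% of features in that sample were at 0. The low position of the peroxiredoxin in psbs therefore rests on the 5 samples at 0.

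AT1G54500 encodes a rubredoxin-like protein, a small electron carrier that holds iron between cysteines. It was at 0.595, 0.596, 0.436, 0.483, 0.395 and 0.406 in WT replicates 1 to 6, and at 1.72, 1.83, 1.47, 1.60, 1.15 and 1.18 in psbs replicates 1 to 6. Every psbs sample lay above every WT sample, the closest values being a factor of 1.93 apart. The mean rose from 0.485 ± 0.0910 to 1.49 ± 0.282 (SD, n = 6 each), a ratio of 3.07. Position rose from between 59.8% and 67.5% in WT to between 94.1% and 95.0% in psbs.

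AT1G04420, whose family uses NADPH to reduce carbonyl groups, split off psbs replicates 1 and 2, which also had the lowest medians over all features. The WT values were 0.196, 0.161, 0.142, 0.157, 0.163 and 0.148. In psbs, replicates 1 and 2 were at 0.155 and 0.174, inside the WT range, and replicates 3 to 6 were at 0.586, 0.532, 0.653 and 0.585, all above it. The group mean of 0.447 ± 0.223 (SD, n = 6) in psbs, against 0.161 ± 0.0190 (SD, n = 6) in WT, thus describes none of its samples well. In position all 6 psbs samples were above WT: 78.5% and 80.2% in replicates 1 and 2 and 89.9% to 91.5% in the others, against 25.0% to 29.7% in WT.

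**Figure D1:**
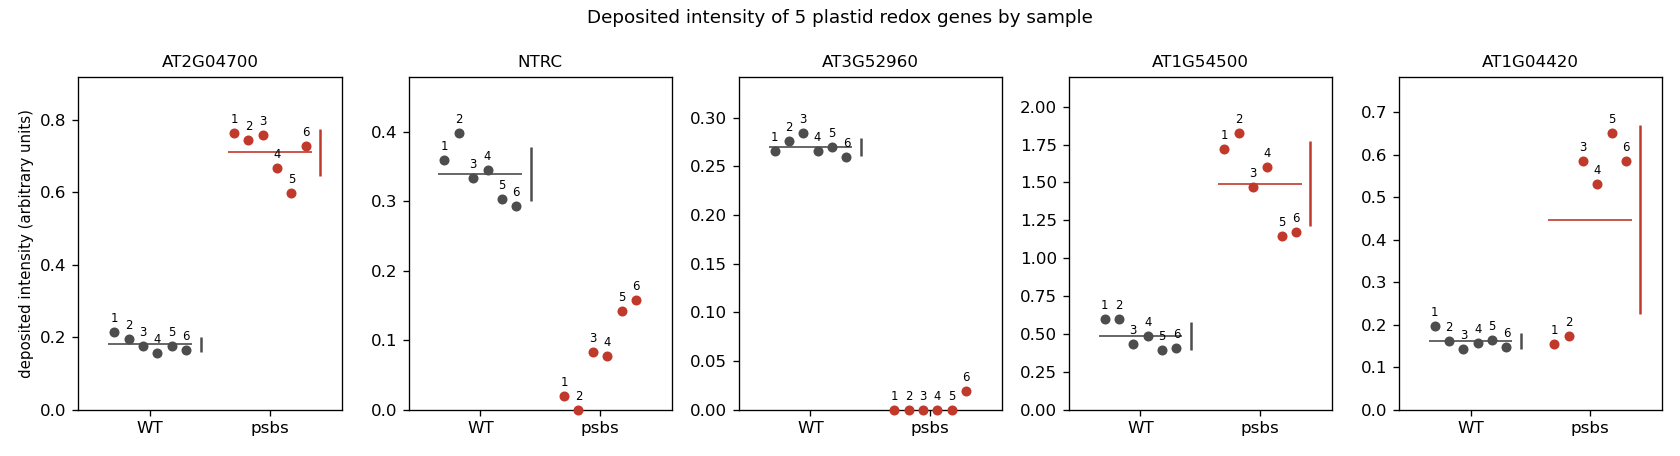
Deposited intensity in arbitrary units (vertical axis, from 0, a separate scale for each gene) of the 5 redox genes in each WT and psbs sample. Points carry the replicate number, horizontal lines are group means and vertical bars are ± 1 SD, left out where a sample was listed at 0. All psbs points are above all WT points for AT2G04700 and AT1G54500 and below them for NTRC and AT3G52960, and psbs replicates 1 and 2 of AT1G04420, at 0.155 and 0.174, lie among the WT points.

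**Figure D2:**
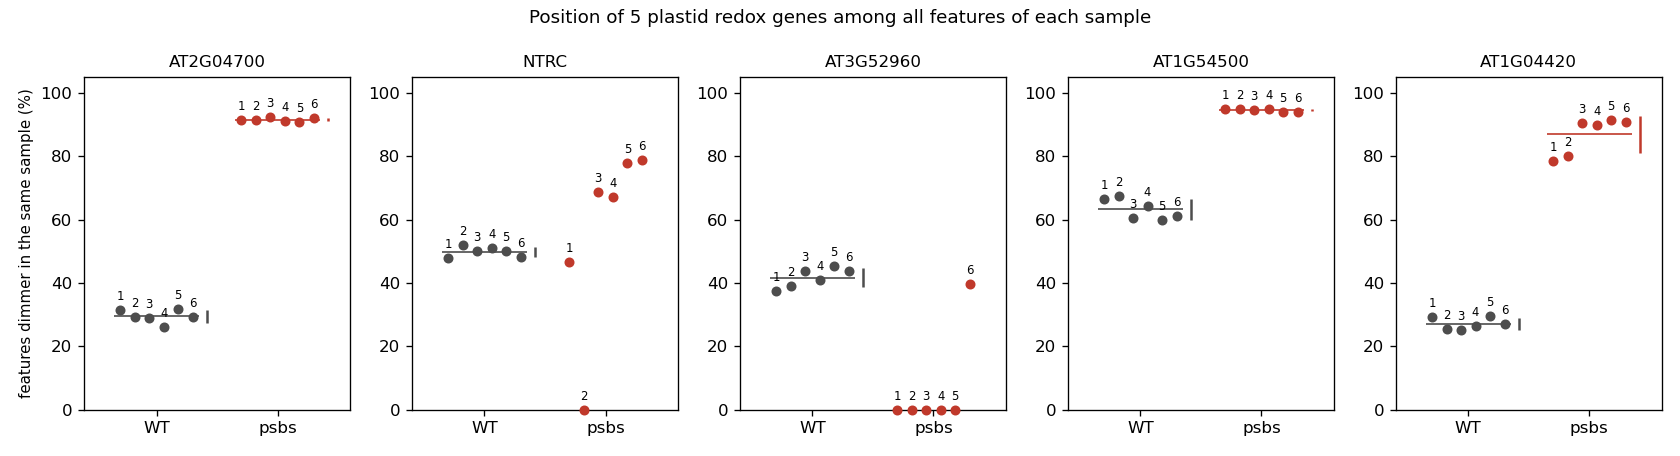
Percentage of the 3439 features that were dimmer in the same sample (vertical axis) for the 5 redox genes in each sample, with points, lines and bars as for intensity. AT2G04700, AT1G54500 and AT1G04420 sit higher in all psbs samples than in any WT sample, NTRC overlaps, and AT3G52960 is at 0% in psbs replicates 1 to 5.

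How far apart the groups were depended on how the samples were brought to a common scale, and this decided the direction for NTRC. The log2 difference, psbs minus WT, was taken after quantile scaling, which gives all samples the same distribution, with values below 0.0559 raised to that floor. It was 3.62 ± 0.09 (SE) for AT2G04700, 2.73 ± 0.10 (SE) for AT1G54500 and 3.26 ± 0.23 (SE) for AT1G04420. As deposited, with no scaling, these genes differed by 1.98, 1.62 and 1.26. After cyclic loess the differences were 3.93, 2.14 and 3.87, and they were largest, at 5.42, 5.06 and 4.70, when each sample was divided by the median of all its values. The 3 genes were thus higher in psbs, and called so, under each of the 5 scalings tried, as were 6.37% of all tested features. They were chosen with this contrast known, so nothing is read from this. The median difference over all features was 0.05 after quantile scaling and -2.86 as deposited, so each value is relative to that shift.

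The peroxiredoxin AT3G52960 had a negative difference under each of the same scalings, of widely differing size. It was called lower under all 5, as were 13.6% of all tested features. Its log2 difference was -1.16 ± 0.22 (SE) after quantile scaling, -4.44 as deposited, -0.62 after loess, and -2.23 and -1.76 when centred on the median of positive values or of all values. With 0 values treated as missing, psbs replicate 6 alone stood for the mutant. The difference after quantile scaling was then -0.10 ± 0.19 (SE), smaller than its error, and the gene was no longer called. Its lower level after quantile scaling thus rests on the samples at 0. As deposited, psbs replicate 6 at 0.0187 was itself below the lowest WT value of 0.260. NTRC took both signs: -2.58 ± 0.61 (SE) as deposited, -0.04 after centring on positive values, 0.37 ± 0.44 (SE) after quantile scaling, 0.64 after centring on all values and 1.02 after loess. Without psbs replicates 1 and 2 the NTRC difference after quantile scaling was 0.98 ± 0.12 (SE). NTRC therefore has no settled direction in these data.

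**Figure D3:**
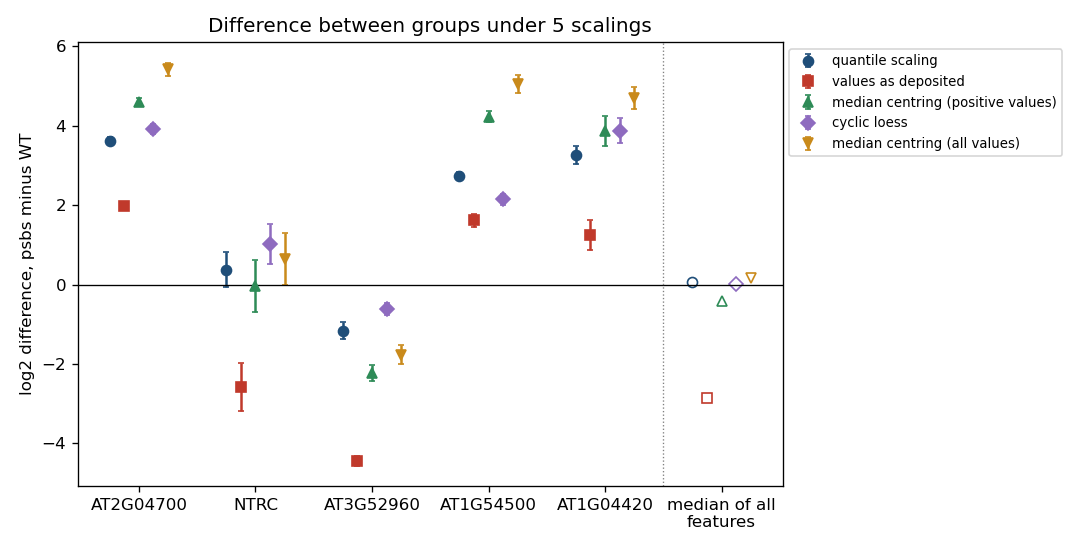
Log2 difference, psbs minus WT (vertical axis), of the 5 redox genes under 5 scalings; bars are ± 1 SE of the limma fit over 12 samples, and open symbols at the right show the median difference of all 3359 tested features under the same scaling. AT2G04700, AT1G54500 and AT1G04420 stay above 0 and AT3G52960 below it in these 5, while NTRC runs from -2.58 to 1.02.

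In the limma fit across 3359 features after quantile scaling, 3 of the 5 genes were called higher in psbs, 1 was called lower and NTRC was not called, at a Benjamini-Hochberg adjusted p threshold of 0.05. Over all features 55.3% were called, 26.2% higher and 29.1% lower, and 47.4% of the calls were higher. As deposited 3 of the 5 were called higher and 2, NTRC among them, lower, where 80.4% of all features were called, 7.38% higher and 73.0% lower, so that 9.18% of the calls were higher, against 36.3% after centring on positive values. Deposited intensities of the groups did not overlap, with psbs above, for 2 of the 5 genes and for 5.84% of all features, and with psbs below for 2 of the 5 genes and 67.3% of all features. After quantile scaling psbs lay above for 3 of the 5 and for 17.7% of all features, and below for 0 of the 5 and for 21.5%. NTRC was called higher after quantile scaling without psbs replicate 2, without psbs replicates 1 and 2, and with 0 values treated as missing. Since the 5 genes were chosen with this comparison known, nothing is read from these counts.

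Spread within a group does not compare the groups, but it is not free of the choice of genes, since a clear group difference can favour a low spread. Among features above 0 in all 6 WT samples the coefficient of variation of intensity had a median of 15.4% and a lower quartile of 10.4%. The peroxiredoxin AT3G52960 varied by only 3.32% in WT, NTRC by 11.4%, AT2G04700 by 11.6%, AT1G04420 by 11.8% and AT1G54500 by 18.7%. In psbs the median was 44.8% and the lower quartile 26.6%. There AT2G04700, at 9.17%, and AT1G54500, at 18.9%, varied less than most features, and AT1G04420, at 49.8%, varied more than the median. These backgrounds hold features of any brightness, whereas AT2G04700 and AT1G54500 were near the bright end of each psbs sample. Nothing is therefore read from their low spread.

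Replicates 1 and 2 stood on one side of replicates 3 to 6 for several of these genes. In psbs both were below all of replicates 3 to 6 for NTRC and AT1G04420, as for 20.7% of all tested features, and both were above them for AT1G54500, as for 16.7%. For AT1G04420 the mean of replicates 3 to 6 was 3.58 times that of replicates 1 and 2. In WT both were above replicates 3 to 6 for AT2G04700, NTRC and AT1G54500, as for 40.0% of all features, by factors of 1.22, 1.19 and 1.39. AT1G54500 was closely alike within consecutive numbers in both groups, the higher sample being at most 1.11 times the lower in each pair, although the brightest and dimmest samples differed by factors of 1.51 in WT and 1.59 in psbs. This was not particular to it. For AT1G04420 in psbs the pair ratios were 1.12, 1.10 and 1.12, against a factor of 4.21 between its brightest and dimmest samples. The ratio reached 1.22 for AT2G04700 in psbs replicates 5 and 6 and for AT1G04420 in WT replicates 1 and 2. Whether consecutive numbers were repeats of a single source was not tested, and over all features their deviations from the group mean correlated at 0.274 to 0.459 in WT and at 0.0682 to 0.385 in psbs.

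Of 109 further genes listed around these proteins, which include ferredoxins, thioredoxins, peroxiredoxins, antioxidant enzymes, thioredoxin-regulated enzymes and the tissue markers, 6 had a tested feature of their own. After quantile scaling 4 of the 6 rose and 1 fell in the limma fit, where 26.2% of all features were called higher and 29.1% lower. Their median log2 difference was 1.32, against 0.05 over all features. As deposited 1 rose and 2 fell, where 7.38% of all features were called higher and 73.0% lower, and the median was -0.59 against -2.86. No ferredoxin, thioredoxin or further thioredoxin reductase was among them, so the partners of AT2G04700 could not be followed. The list includes PRK, SBPASE and CHLM, whose differences were known when it was drawn up. Nothing is therefore read from these counts and medians, and the adjusted p-values given for SBPASE and CHLM are descriptions.

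SRX, the sulfiredoxin that restores overoxidised peroxiredoxins, was lowest in psbs replicates 1 and 2, as NTRC was. It was at 0.326, 0.362, 0.218, 0.242, 0.211 and 0.209 in WT and at 0.0442, 0.00114, 0.208, 0.199, 0.359 and 0.263 in psbs, in order of replicate number. These replicates were below every WT sample, and the other psbs samples lay inside or close to the WT range. After quantile scaling SRX rose by 1.53 ± 0.40 (SE) on the log2 scale (limma adjusted p = 0.00604). The difference was -1.19 as deposited (limma adjusted p = 0.167). It did not pass with consecutive numbers averaged (limma adjusted p = 0.0652), nor after centring on positive values (limma adjusted p = 0.176) or on all values (limma adjusted p = 0.0616).

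AT2G27680, a second aldo-keto reductase, split the psbs samples in the way AT1G04420 did. Its psbs intensities were 0.151 and 0.142 in replicates 1 and 2 and 0.717, 0.764, 0.698 and 0.652 in replicates 3 to 6, against 0.223 to 0.573 in WT, with a median of 0.358. The first pair lay below every WT sample and the other samples lay above. After quantile scaling it rose by 2.03 ± 0.36 (SE) on the log2 scale (limma adjusted p = 0.000428), and as deposited the difference was 0.19 (limma adjusted p = 0.735).

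Among enzymes that thioredoxins switch on, members moved in both directions. PRK, phosphoribulokinase of the Calvin cycle, was at 1.45 to 1.81 in WT and 9.56 to 17.9 in psbs, a log2 difference of 3.19 after quantile scaling with no overlap, and replicates 1 and 2 were its highest psbs samples. AT5G58330, the NADP-dependent malate dehydrogenase that exports reducing power from the chloroplast, was at 0.522, 0.529, 0.391, 0.414, 0.418 and 0.439 in WT. In psbs it was at 0.0316, 0.0167, 0, 0.000725, 0.0293 and 0.0204, below every WT sample, as for 67.3% of all tested features. It fell by 0.99 on the log2 scale after quantile scaling (SE 0.28, limma adjusted p = 0.00958) and by 4.59 as deposited. It was not called after loess (limma adjusted p = 0.105) or with consecutive numbers averaged (limma adjusted p = 0.0822).

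CHLM, a methyltransferase of chlorophyll synthesis, was at 0.318 to 0.503 in WT and 0.138 to 0.257 in psbs. It was called higher after quantile scaling, at 1.10 on the log2 scale (limma adjusted p = 1.23e-05), and lower as deposited, at -1.26 (limma adjusted p = 2.45e-05), so its direction was not settled. SBPASE, sedoheptulose bisphosphatase of the Calvin cycle, had no WT value above 0, and its psbs samples were at 0.00902, 0, 0, 0.0119, 0.00629 and 0 in order of replicate number. It did not pass after quantile scaling (limma adjusted p = 0.0755), passed as higher with consecutive numbers averaged (limma adjusted p = 0.0207) and as lower after loess (limma adjusted p = 0.00703). In deposited intensity no psbs sample was below any WT sample, so the lower call holds only for the values after loess.

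**Figure D4:**
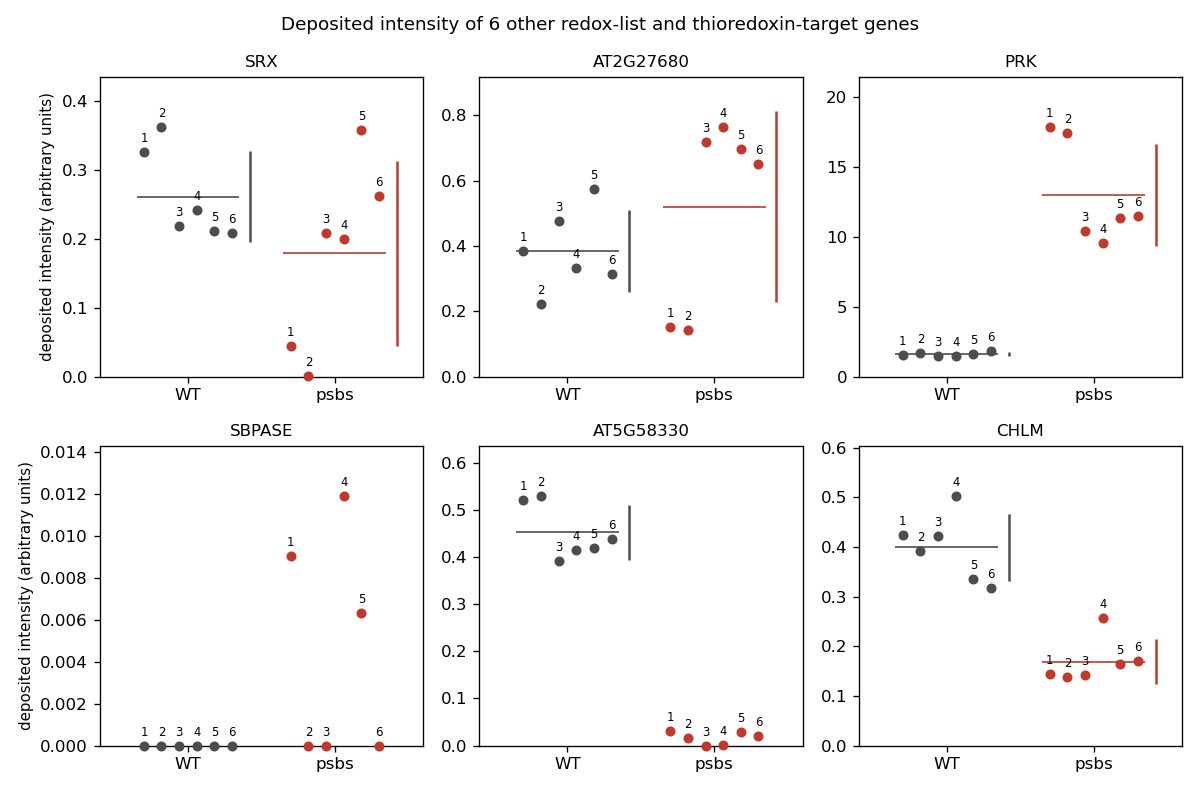
Deposited intensity in arbitrary units (vertical axis, from 0, a separate scale for each gene) of 6 further redox-list and thioredoxin-target genes in each sample, with replicate numbers, group means and ± 1 SD bars, left out where a sample was listed at 0. psbs replicates 1 and 2 are the lowest psbs points for SRX and AT2G27680 and the highest for PRK.

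Profiles over the 12 samples were compared with those of 591 other features of a single gene that were above 0 in at least 6 samples, by Pearson's r of scaled log2 values. These r values are descriptions: the 12 samples form the 2 groups, so a high r mostly reflects a like difference between them, and the second value given for each is the r of deviations from the group means. The profile closest to AT2G04700 was that of AT1G54500 (r = 0.994, deviations -0.06). After quantile scaling the reductase subunit and the rubredoxin-like gene thus shared the difference between groups but not the variation within them. In deposited intensity WT replicates 1 and 2 were above replicates 3 to 6 for both genes, so this depends on the scaling. The next for AT2G04700 was AT4G25290 (r = 0.990, deviations 0.34). For AT1G54500 the next was AT3G47650, the BSD2 chaperone of Rubisco assembly (r = 0.994, deviations 0.62).

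NTRC was closest to AT1G17160 (r = 0.921, deviations 0.92) and to CYN, cyanase (r = 0.882, deviations 0.90), and here the likeness within groups came from psbs: within the 6 WT samples r was -0.47 and -0.21. The mean intensity of AT1G17160 went from 0.640 ± 0.0700 in WT to 0.201 ± 0.124 in the mutant (SD, n = 6 each). AT3G52960 was closest to AT2G48090 (r = 0.980, deviations 0.99) and AT5G24690 (r = 0.971, deviations 0.92). These were listed at 0 in 5 and 4 psbs samples and above 0 in psbs replicate 6, so the r of deviations leans on that sample, and within WT alone it was 0.83 and 0.72. AT1G04420 was closest to AT3G27110 (r = 0.987, deviations 0.72) and AT5G44000 (r = 0.985, deviations 0.89). As deposited AT5G44000 was lower in psbs, at 0.141 ± 0.0572 against 0.298 ± 0.0148 in WT (SD, n = 6 each), so profiles alike after scaling need not be alike in intensity.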

How the data were processed

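Gene signals were compared between 6 WT and 6 psbs samples, grouped and numbered by their titles. The deposited values are linear intensities; the sources used here give no scanner, background correction, scaling or meaning of 0 values, and the number of samples limits the precision. Features were named from the platform annotation; 690 of 692 features of a single gene matched a RefSeq locus, as did all 5 genes described. No genome build is named, so no coordinates are given.

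Columns were quantile scaled, with 0 values kept at 0. A floor was set at 0.0559, the 5th percentile of all scaled values above 0, before log2 was taken. limma 3.58.1 in R 4.3.3 (lmFit, eBayes) was fitted to the 3359 features above 0 in at least 1 sample (80 were not), with Benjamini-Hochberg adjustment. These steps follow an earlier account of the same table. The 5 genes, the 11 gene lists and the tests were chosen with earlier results of these data known. The named genes are the 5, each tested list gene, and the 2 closest profiles of each of the 5. A simulation set both groups at the WT means with the real spread within groups, without 0 values or a general shift between groups. There the fit recovered 34 of 100 features changed 2-fold and 67 of 100 changed 4-fold among 3025, and 8 of 109 calls were unchanged features. The real samples held 0 values and differed in general level between groups, so these rates need not hold for them. Alternatives changed the scaling, the floor, 0 values, the filter, the block, the variance prior and the samples; centring on the median of all values was added after the data were examined. Figures used matplotlib 3.10.9 in Python 3.11.15.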

Additional observations from a re-analysis of the deposited data

Results flagged for a closer look

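For the 11 named redox and thioredoxin-target genes, single samples that stood apart from the remaining 5 of a group were sought on deposited intensities and on scaled log2 values, in 42 groups with any spread. About 5% of groups would be picked by chance, and 3 were found. The groups are not independent, since AT3G52960 in psbs replicate 6 was picked on both scales. Its other psbs samples were tied at 0, so a value above 0 stands apart whatever its size, and the 5% does not apply. The intensity of AT3G52960 was 0.0187 in psbs replicate 6 and 0 in psbs replicates 1 to 5. On the scaled log2 scale the same sample was at -2.89, and the others were at the floor of -4.16. The intensity of CHLM was 0.257 in psbs replicate 4, and it ranged from 0.138 to 0.170 in the remaining psbs samples.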

How the results depend on the processing

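The number of features called, 1859, stayed within 1.5 times under all 24 alternatives, and was 1734 to 1925 when 1 sample was left out. As deposited 248 features were called higher and 2453 lower, in place of 881 and 978. The ranges were 828 to 938 higher and 906 to 987 lower when 1 sample was left out. Among the 6 further list genes, 4 higher and 1 lower became 1 higher and 2 lower as deposited. With consecutive numbers averaged 0 were called lower by limma (1 at an unadjusted p under 0.05). Leaving out 1 sample gave 4 to 5 higher, the fifth being SBPASE, and 1 lower. Differences that changed sign were those of SRX (-1.19), CHLM (-1.26) and NTRC (-2.58) as deposited, of NTRC (-0.04) after centring on positive values and of SBPASE (-0.34) after loess. AT2G04700, AT1G54500 and AT1G04420, chosen with this contrast known, kept their direction under all 24 alternatives. AT3G52960 kept its negative sign too, but with 0 values missing it was at -0.10 ± 0.19 (SE), smaller than its error, and no longer called. Their ranges with 1 sample left out were 3.52 to 3.73, 2.62 to 2.86, 3.10 to 3.36 and -1.43 to -1.06, and that of NTRC was 0.16 to 0.77. NTRC at 0.77 was the value without psbs replicate 2, which was listed at 0, against 0.37 with it.

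Same-numbered WT and psbs samples deviated together at r = 0.0569 to 0.154, weakest for replicate number 3. All 12 samples correlated best with their own number in the other group, so same-numbered samples shared some variation. The labels do not say that equal numbers are pairs, what they shared was not tested, and the main fit leaves the numbers out. With the replicate block 1833 features were called. Samples at 0 were set to the floor, which bears on AT3G52960, NTRC, AT5G58330 and SBPASE; with 0 values missing AT5G58330 was still called and NTRC was called higher, at 0.79, and SBPASE gave no value.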
